A study of Mus musculus with 36 samples.

Results

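The comparison described here was hippocampus against cerebellum in the control animals of a Pogz study. It used 12 of the 36 libraries of the series. The members were the hippocampal and the cerebellar library of each of the 6 animals labelled Control (Sample_1129, Sample_1155, Sample_1170, Sample_1172, Sample_1190 and Sample_1192), and the 2 tissues were paired by animal number. The controls were C57Bl/6 mice of the genotype Pogz fl/fl, homozygous for the floxed allele of Pogz and without the Nestin-Cre transgene that the mutants carried, so no Pogz deletion was made in them. They were adults of 8 to 16 weeks, 3 of them female (Sample_1129, Sample_1170 and Sample_1172) and 3 male (Sample_1155, Sample_1190 and Sample_1192). RNA of whole dissected hippocampi and cerebella was enriched for poly(A) RNA and sequenced, and reads were counted per gene. Of 24421 genes listed, 14224 were above 1 CPM (counts of the gene per 1000000 counts of the library) in at least 6 of the 12 libraries and were tested.

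The hippocampus is a forebrain structure built around glutamatergic pyramidal neurons of the CA fields and granule neurons of the dentate gyrus, with GABAergic interneurons of many kinds and a small zone of adult neurogenesis. The cerebellum is a hindbrain structure in which tiny glutamatergic granule neurons far outnumber the other cells, and Purkinje cells, large GABAergic neurons enwrapped by Bergmann glia, carry the cortical output. The territories are set apart in the embryo by different transcription factors, and their neurons are known for different subunits of the same receptors and channels. In whole tissue, more cells of a type and more RNA per cell cannot be told apart, which holds for every difference given here.

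Hippocampal libraries were deeper than cerebellar ones, with 30389941 to 45544188 gene counts against 26741855 to 29954493. The Pearson correlation of log2 CPM was at least 0.974 between libraries of one tissue and 0.782 to 0.832 between libraries of different tissues. Levels of Xist and a Y-linked gene matched the labelled sex in all 12 libraries. No label gave a day of dissection or sequencing, and any such batch that followed the tissue cannot be told apart from it.

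Some hippocampal libraries stood apart. Some of the results that rest on them, but not all, are given with and without them. In the hippocampal library of animal Sample_1129, the 12 genes with the largest excess in cerebellum stood at 3.71 to 6.29% of their level in the cerebellum of the same animal (median 5.15%), whereas the medians of the other 5 animals were 0.046 to 0.12%. The 12 genes with the largest excess in hippocampus gave no such signal in the other direction, with medians of 0 to 0.056% in the 6 cerebella. The summed level of 10 choroid plexus markers was 7018 CPM in hippocampal library Sample_1129 and 3725 CPM in Sample_1170, against 149 to 193 CPM in the other 4 hippocampi and 148 to 175 CPM in the cerebella. Hippocampal library Sample_1172 held Tac2 at 23.1 CPM, against at most 4.62 CPM in the other hippocampi, and Chrna3 at 16.9 CPM, against at most 1.01 CPM. Tac2 encodes the neurokinin B precursor and Chrna3 a nicotinic acetylcholine receptor subunit. Among cerebella, that of animal Sample_1190 had 196 genes more than 2-fold off the tissue median, against 10 to 96 in the other 5, and the lowest summed level of 24 Purkinje cell markers, 11157 CPM against 13604 to 15617 CPM.

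**Figure D1:**
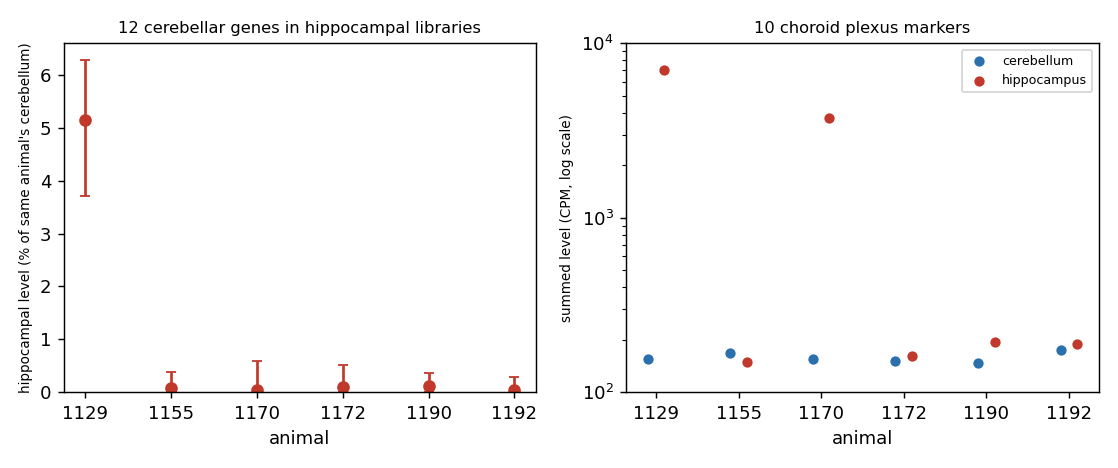
Left, the hippocampal level of the 12 genes with the largest excess in cerebellum, as a percentage of the level in the cerebellum of the same animal (point, median of the 12 genes, bar, lowest to highest gene). Right, the summed CPM of 10 choroid plexus markers in each library on a log scale. Animal Sample_1129 has a median of 5.15% on the left, and hippocampal libraries Sample_1129 and Sample_1170 stand at 7018 and 3725 CPM on the right.

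The question behind the comparison was how far the gene expression of the 2 tissues differed before any Pogz mutation was added. Of the 14224 tested genes, 10377 differed between hippocampus and cerebellum at an adjusted p under 0.05 (73% of those tested, by the quasi-likelihood test of edgeR with p adjusted by Benjamini-Hochberg and animal as a block). The split was even, with 5095 genes higher in hippocampus (35.8%) and 5282 higher in cerebellum (37.1%). The median log2 fold change, hippocampus minus cerebellum throughout, was -0.02 over all tested genes. Most differences were small, with quartiles of the absolute log2 fold change at 0.19, 0.43 and 0.96. Tested against a difference of 2-fold, 2700 genes were called (19%), and these leaned to the hippocampus, with 1679 higher there (11.8%) and 1021 higher in cerebellum (7.18%). An absolute log2 fold change over 3 was reached by 874 genes, 601 of them higher in hippocampus. Neither of these splits by direction was recounted without animal Sample_1129. Its hippocampal library held cerebellar genes above their level in the other hippocampi, which makes their fold changes smaller. In 7420 genes (52.2%) the 6 hippocampal and 6 cerebellar libraries did not overlap. For 5257 genes (37%) the 95% interval of the log2 fold change lay within 0.5 of 0. Genes that were under 1 CPM in every library of one tissue had passed the filter through the other tissue alone, and so had to differ. There were 431 genes of the hippocampus and 127 of the cerebellum. The 127 leave out genes that only hippocampal library Sample_1129 held above 1 CPM. Uncx, for example, was at 1.37 CPM there and at most 0.0712 CPM in the other hippocampi. The 2 counts are therefore not alike, and neither was recounted without that animal.

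The 12 genes furthest on the cerebellar side included markers of granule and Purkinje cells. They were chosen by direction among genes whose tissues did not overlap, so neither their direction nor the lack of overlap is a separate result. Cbln3 (chr14:55878920-55884256, GRCm38), which encodes a cerebellin secreted by granule cells, ranged from 1635 to 2197 CPM in cerebellum, with a median of 1945. In hippocampus it ranged from 0.333 to 73.3 CPM with a median of 0.751, and the highest value was that of animal Sample_1129. Its log2 fold change was -10.28 ± 1.19 (SE, adjusted p against 2-fold = 1.38e-04), and -11.31 ± 0.37 without animal Sample_1129. Gabra6 (chr11:42306437-42321072), the GABA-A receptor subunit of granule cells, had a cerebellar median of 958 CPM (range 873 to 1014) and a hippocampal median of 0.113 CPM (range 0.0348 to 50.6, the highest again Sample_1129). Its log2 fold change was -10.08 ± 1.31, and -11.72 ± 0.52 without animal Sample_1129. Fat2, a giant cadherin of granule cells, had a log2 fold change of -9.74 ± 1.07 (-10.98 ± 0.30 without animal Sample_1129).

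Purkinje cell genes were also among them. Car8, a carbonic anhydrase-related protein that binds the IP3 receptor, was at 2635 ± 348 CPM in cerebellum (mean ± SD, n = 6) and at a median of 5.01 CPM in hippocampus, with 144 CPM in animal Sample_1129. Its log2 fold change was -8.48 ± 0.85, and -9.09 ± 0.13 without that animal. Ppp1r17, a phosphatase inhibitor of Purkinje cells, moved from -8.52 ± 0.96 to -10.36 ± 0.16 in the same way, and Pcp2 from -8.02 ± 0.82 to -9.24 ± 0.11. The exons of Pcp2 overlap those of Pet100 on the opposite strand. The others of the 12 were Cbln1, Uncx, Crtam, Hes3, Nrk and Sycp1, with log2 fold changes from -7.54 (Uncx, a homeobox factor) to -7.28 (Sycp1, known as a protein of the meiotic synaptonemal complex). Sycp1 was at 23.1 to 28.5 CPM in the 6 cerebella, had no count in 5 hippocampi and was at 1.2 CPM in hippocampus Sample_1129. Without animal Sample_1129 the log2 fold changes were between -9.87 (Crtam) and -10.21 (Uncx) for Uncx, Crtam, Hes3 and Nrk, and -7.90 for Cbln1. For Sycp1 no hippocampal count was left to fit one from, and the order of the 12 rests on that animal.

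The genes furthest on the hippocampal side were close to absent from cerebellum. All 11 given in this and the next paragraph were under 1 CPM in every cerebellar library. They had thus passed the filter through hippocampus alone and had to be higher there, so their direction is no separate result. Lhx2 (chr2:38339281-38369737), a LIM-homeodomain factor of the developing cortex and hippocampus, was at 74 ± 4.56 CPM in hippocampus (mean ± SD, n = 6) with 2 counts over the 6 cerebella, a ratio of 6542 with a 95% counting interval of 1811 to 54022, which covers counting error only. Fezf2, a zinc-finger factor of forebrain projection neurons, was at 43.1 ± 7.86 CPM with 3 counts in cerebellum, a ratio of 2544 (871 to 12336). Crhbp, the corticotropin-releasing hormone binding protein, was at 23.2 ± 3.98 CPM, also with 3 counts in cerebellum and a ratio of 1376 (471 to 6673).

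Among genes with a measurable cerebellar level, Ddn, a dendritic protein of forebrain neurons, showed the greatest difference. It ranged from 1989 to 3515 CPM in hippocampus and from 0.184 to 0.368 CPM in cerebellum, a log2 fold change of 13.30 ± 0.12 (adjusted p against 2-fold = 5.70e-11). Crym, a thyroid hormone binding protein, had a log2 fold change of 11.95 ± 0.26, and Slit1, an axon guidance ligand, one of 10.53 ± 0.18. Chrm1, the M1 muscarinic acetylcholine receptor, was at 343 ± 43.9 CPM in hippocampus and 0.32 ± 0.169 CPM in cerebellum (10.08 ± 0.22). Cpne7, a copine, varied more among hippocampi than the others, from 112 to 381 CPM, and its cerebellar levels did not exceed 0.295 CPM. Zfp831, Kcnv1 and Rtn4rl2 followed, with log2 fold changes of 10.59, 10.41 and 10.12. Of these 11 genes, Cpne7 moved most when animal Sample_1129 was left out, from 10.78 ± 0.25 to 11.25 ± 0.19. Fold changes that rest on few cerebellar counts moved with other animals. Without animal Sample_1170 Crym was at 13.09 and Zfp831 at 11.26, and without animal Sample_1190 Kcnv1 was at 11.26.

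**Figure D2:**
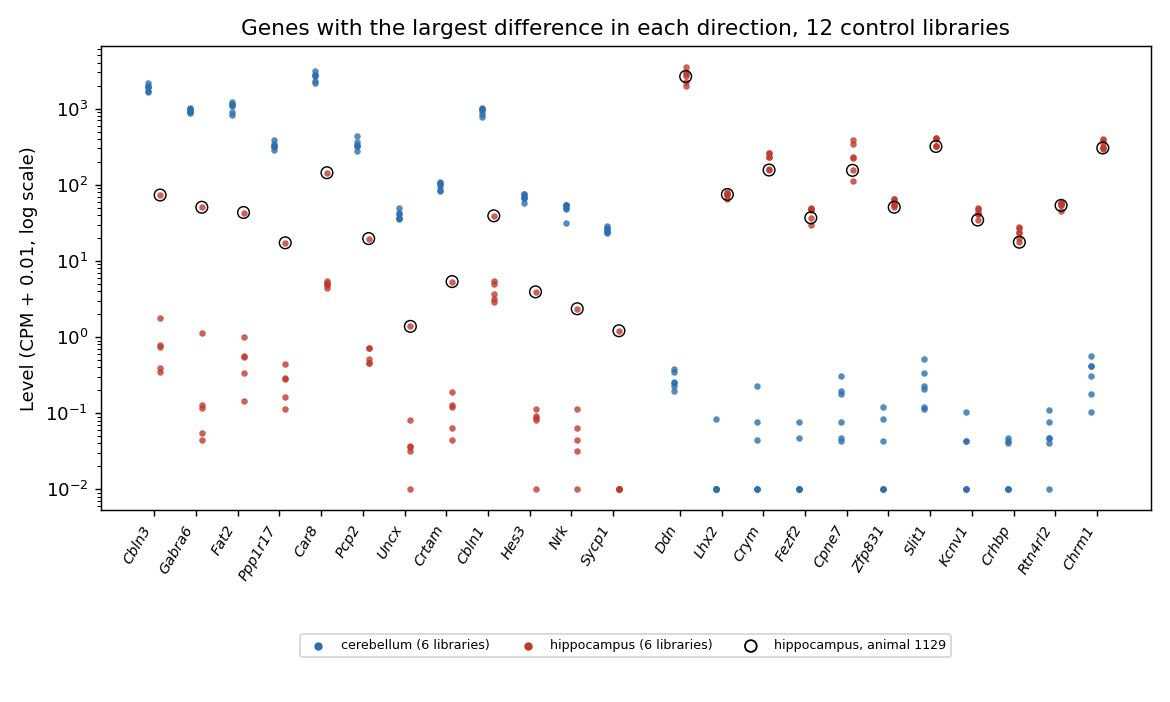
CPM plus 0.01 on a log scale in each of the 12 control libraries for the 12 genes with the largest excess in cerebellum (left) and 11 of those with the largest excess in hippocampus (right). Each point is 1 library, blue for cerebellum and red for hippocampus, and the ring marks hippocampal library Sample_1129, which lies between the groups for the cerebellar genes and within or next to the other hippocampi for the hippocampal genes.

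Some of the most abundant transcripts also differed by more than 2-fold. Camk2a, the alpha subunit of calcium/calmodulin-dependent kinase II, was the most abundant of those higher in hippocampus, at 5092 ± 834 CPM against 109.9 ± 10.9 CPM in cerebellum (log2 fold change 5.52 ± 0.13). Ncdn, Slc1a2, Cpe and Kif5a were each at least at 2246 CPM in every hippocampus, with log2 fold changes of 2.86, 1.90, 1.48 and 1.33. Slc1a2 is the main astrocytic glutamate transporter, Cpe a carboxypeptidase of neuropeptide processing and Kif5a a neuronal kinesin. Itpr1, the IP3 receptor of Purkinje cells, was the most abundant on the cerebellar side, at 4578 ± 1121 CPM against 614 ± 97.5 CPM (-2.87 ± 0.19). Its cerebellar values were 4701, 5324, 5525, 4605, 2408 and 4905 CPM in the order of animal number, and the cerebellum of Sample_1190 was the low one. Aldoc and Rgs8 were also at least at 1295 CPM in every cerebellum, with log2 fold changes of -1.15 and -3.54.

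Transcription factors of regional identity were divided between the tissues. Over all tested genes, 35.8% were higher in hippocampus and 37.1% in cerebellum. Of 34 forebrain factors listed, 33 were tested, 31 were higher in hippocampus, 1 was higher in cerebellum and 1 was not called. Their median log2 fold change was 5.86, and 16 of them had passed the filter through hippocampus alone and so had to differ. Of 26 mid-hindbrain and rhombic lip factors, 16 were tested and all 16 were higher in cerebellum, with a median of -4.33 (-4.61 without animal Sample_1129), and 4 of them had passed the filter through cerebellum alone. With genes above 1 CPM in all 12 libraries the median of the tested forebrain factors was 1.31 and that of the mid-hindbrain factors -3.60. En2, the engrailed factor of the midbrain-hindbrain boundary, was at 188 ± 16.2 CPM in cerebellum, and its hippocampal median was 0.903 CPM. Zic1, a zinc-finger factor of granule cells, was at 655 to 857 CPM in cerebellum. In hippocampus it reached 61.7 CPM in animal Sample_1129 and 32.1 CPM in animal Sample_1172, and stayed at or under 8.7 CPM in the other 4. Dlx2, Dlx5, Dlx6, Sp8 and Sp9 had no count in any cerebellum. Dlx2 was at 4.44 ± 0.885 CPM in hippocampus, which against a floor of 3 counts over the 6 cerebella was at least 263-fold higher.

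Some forebrain factors were shared. Zbtb18, a zinc-finger repressor of cortical development, was the one higher in cerebellum, at 909 ± 109 CPM against 693 ± 74 CPM (-0.39 ± 0.09). Neurod2, a basic helix-loop-helix factor of glutamatergic neurons, was high in both tissues, with 218 ± 30 CPM in hippocampus and 142 ± 13.1 CPM in cerebellum (0.61 ± 0.10). Its relative Neurod1 stood in the opposite direction, at 555 ± 14.1 CPM in cerebellum and 36 ± 8.88 CPM in hippocampus (-3.98 ± 0.13). Nr2f2, an orphan nuclear receptor, was the one not called (0.22, 95% interval -0.32 to 0.76). Neurod6 was at 209 ± 32.6 CPM in hippocampus and 7.79 ± 1.07 CPM in cerebellum (4.74 ± 0.085).

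The promoters of 3 pairs of related or functionally parallel genes with opposite tissue preference are printed, as RefSeq gives them for GRCm38.p6 (250 bases before to 50 after the start of the gene, written along the strand of the gene). Capitals mark CG pairs. Gabra6 and Gabra5 are GABA-A receptor subunits, Cbln3 and Cbln4 cerebellins, and Zic1 and Lhx2 regional transcription factors, the first of each pair higher in cerebellum and the second in hippocampus. The windows lie at chr11:42321023-42321322, chr7:57510010-57510309, chr14:55884207-55884506, chr2:172043417-172043716 and chr9:91365719-91366018 on the minus strand and at chr2:38339031-38339330 on the plus strand.
Gabra6: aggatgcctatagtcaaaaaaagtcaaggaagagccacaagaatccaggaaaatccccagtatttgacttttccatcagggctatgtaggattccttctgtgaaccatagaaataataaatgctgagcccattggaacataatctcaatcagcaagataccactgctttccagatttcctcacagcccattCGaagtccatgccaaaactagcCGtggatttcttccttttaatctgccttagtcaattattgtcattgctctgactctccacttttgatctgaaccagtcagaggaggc
Gabra5: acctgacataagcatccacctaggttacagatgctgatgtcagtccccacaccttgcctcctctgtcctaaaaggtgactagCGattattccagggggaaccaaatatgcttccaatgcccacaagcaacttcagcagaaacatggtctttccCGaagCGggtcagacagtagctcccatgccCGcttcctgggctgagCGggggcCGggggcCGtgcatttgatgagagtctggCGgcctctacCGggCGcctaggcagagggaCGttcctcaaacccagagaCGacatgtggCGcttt
Cbln3: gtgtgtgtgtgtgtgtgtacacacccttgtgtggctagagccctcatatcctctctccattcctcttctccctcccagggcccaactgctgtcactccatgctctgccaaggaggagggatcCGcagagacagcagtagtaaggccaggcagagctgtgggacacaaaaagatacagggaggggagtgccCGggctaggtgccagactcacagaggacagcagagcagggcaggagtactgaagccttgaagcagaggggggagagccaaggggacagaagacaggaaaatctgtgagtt
Cbln4: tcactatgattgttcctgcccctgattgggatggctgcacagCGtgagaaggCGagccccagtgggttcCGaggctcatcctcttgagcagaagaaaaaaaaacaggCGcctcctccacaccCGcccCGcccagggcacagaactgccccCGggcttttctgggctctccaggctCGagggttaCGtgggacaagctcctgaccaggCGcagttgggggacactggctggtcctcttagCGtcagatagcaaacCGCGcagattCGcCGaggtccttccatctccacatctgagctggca
Zic1: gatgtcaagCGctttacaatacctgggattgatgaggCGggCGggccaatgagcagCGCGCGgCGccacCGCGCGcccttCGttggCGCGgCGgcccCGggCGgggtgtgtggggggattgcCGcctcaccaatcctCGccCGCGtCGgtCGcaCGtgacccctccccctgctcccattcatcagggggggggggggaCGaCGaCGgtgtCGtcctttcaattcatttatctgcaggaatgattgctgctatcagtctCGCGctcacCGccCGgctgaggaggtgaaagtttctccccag
Lhx2: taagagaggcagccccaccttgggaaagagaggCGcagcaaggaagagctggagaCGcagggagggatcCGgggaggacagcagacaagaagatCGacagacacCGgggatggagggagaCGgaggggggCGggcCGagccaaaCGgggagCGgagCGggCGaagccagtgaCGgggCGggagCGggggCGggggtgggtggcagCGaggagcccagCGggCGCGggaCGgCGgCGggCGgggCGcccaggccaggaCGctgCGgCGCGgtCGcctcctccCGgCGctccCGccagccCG
The windows of Gabra6 and Cbln3 held 2 CG pairs each, those of Gabra5 and Cbln4 13 and 15, and those of Zic1 and Lhx2 31 and 34. The median over all 32851 windows of the table was 7. The E-box CAGATG, read on both strands, occurred once in the window of Gabra5 and once in that of Cbln4, and was found in 17.2% of all windows. The palindromic E-box CAGCTG was in none of the 6 and in 16.3% of all windows. These counts describe the letters of the windows and were not tested against the tissue difference, since only 75.8% of the tested genes had a window.

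Markers of the neuron types of each tissue were mostly, but not wholly, on the side of their tissue. The shares to set beside the counts of these and all later lists are 35.8% of all tested genes higher in hippocampus and 37.1% in cerebellum. Of 17 granule cell markers, 16 were higher in cerebellum, with a median log2 fold change over the list of -4.56. The exception was Slc17a7, the vesicular glutamate transporter VGLUT1 of granule and pyramidal cells alike, at 1664 ± 162 CPM in hippocampus and 618 ± 31.5 CPM in cerebellum (1.42 ± 0.061). Of 24 Purkinje cell markers, 22 were higher in cerebellum (median -3.85). The other 2, Doc2b among them, were higher in hippocampus. All 8 Bergmann glia markers were higher in cerebellum (median -1.65), 6 of them by more than 2-fold in the test. Of 13 markers of cerebellar Golgi, molecular layer and unipolar brush cells, 9 were higher in cerebellum and 4 in hippocampus, the latter Grm2, Sorcs3, Ptprk and Nxph1. Of the 9, 2 had passed the filter through cerebellum alone. Slc6a5, the glycine transporter of Golgi cells, had a log2 fold change of -7.52 ± 0.48 (-9.21 without animal Sample_1129), and Eomes, which marks unipolar brush cells, one of -5.10 ± 0.12.

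All 8 CA1 pyramidal markers were higher in hippocampus (median 4.73), and the 2 tissues did not overlap for any of them (52.2% of all tested genes). Of these markers 2 had passed the filter through hippocampus alone and so had to be higher there, and the median was 2.75 with genes above 1 CPM in all 12 libraries. Fibcd1, a CA1 marker, was at 229 ± 29 CPM in hippocampus and 0.368 ± 0.213 CPM in cerebellum (9.30 ± 0.19). Of 10 CA2 and CA3 markers, 7 were higher in hippocampus, 2 of them above the filter through hippocampus alone, and 3 in cerebellum. Rgs14, a G-protein regulator of CA2, was at 157 ± 21 CPM in hippocampus and 0.159 ± 0.0783 CPM in cerebellum, whereas Pcp4, used as a CA2 marker but abundant in Purkinje cells, was higher in cerebellum (-2.45 ± 0.10). Of 17 dentate markers, 11 were higher in hippocampus, 4 in cerebellum and 2 were not called. The list median was 3.24, and 0.10 with genes above 1 CPM in all 12 libraries. Of the 11, 5 had passed the filter through hippocampus alone. Dsp, desmoplakin, a dentate granule cell marker, was at 85.1 to 198 CPM in hippocampus and at most 0.569 CPM in cerebellum. Calb1 and Calb2, calcium buffers that mark dentate cells within the hippocampus, were among the 4, with log2 fold changes of -3.13 and -4.21.

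Interneuron markers were split. Of 20 forebrain interneuron markers, 12 were higher in hippocampus, 7 in cerebellum and 1 was not called. Of the 12, 8 had passed the filter through hippocampus alone, and the list median of 2.52 became -0.73 with genes above 1 CPM in all 12 libraries. The neuropeptide Sst was at 171 ± 28.3 CPM in hippocampus and 0.769 ± 0.33 CPM in cerebellum (7.81 ± 0.12). Pvalb, a calcium buffer of basket cells in the hippocampus and of Purkinje and molecular layer cells in the cerebellum, was at 34.9 ± 14.4 and 714 ± 108 CPM (-4.43 ± 0.24). Gad1, which makes GABA, was higher in cerebellum, 681 ± 67.4 against 319 ± 16.6 CPM (-1.09 ± 0.057). Of 15 tested genes of adult neurogenesis, 11 were higher in hippocampus, of which 4 had passed the filter through hippocampus alone. Dcx, doublecortin of immature neurons, was at 25.4 ± 3.07 CPM in hippocampus and 5.01 ± 0.814 CPM in cerebellum (2.34 ± 0.14). The 4 in the other direction were Eomes, Neurod1, Hopx and Nes, of which the first pair are also expressed by cerebellar unipolar brush and granule cells. Hopx is also on the list of Bergmann glia markers.

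The lists of microglia, oligodendrocyte lineage, astrocyte and endothelial markers had medians between -0.73 and 1.74. All 10 microglia markers were higher in hippocampus, and their summed level did not overlap, with 397 to 534 CPM in hippocampus and 144 to 157 CPM in cerebellum. The median of the list was 1.74, against -0.02 for all tested genes. Csf1r, the receptor on which microglia depend, was at 118 ± 16.9 CPM in hippocampus and 33 ± 2.49 CPM in cerebellum (1.82 ± 0.074). All 6 oligodendrocyte precursor markers were also higher in hippocampus (median 1.24), Pdgfra among them (1.43 ± 0.066). Markers of mature oligodendrocytes lay close to 0, with 4 of 10 higher in hippocampus, 3 in cerebellum and 3 not called. Mbp, myelin basic protein, was at 1839 to 3020.3 CPM in hippocampus and 1832 to 2774 CPM in cerebellum, a log2 fold change of 0.09 with a 95% interval of -0.13 to 0.30. All 8 endothelial markers were higher in cerebellum (median -0.73), for example Flt1, a VEGF receptor (-1.03 ± 0.12), and none of them by more than 2-fold in the test. Most of 5 blood cell markers fell under the filter, and 1, Alas2, was tested (-0.87 ± 0.19).

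Astrocyte markers went both ways, 3 of 10 higher in hippocampus, 6 in cerebellum and 1 not called. The glutamate transporters of astrocytes stood against each other. Slc1a2 was at 3083 ± 462 CPM in hippocampus and 828 ± 119 CPM in cerebellum, and Slc1a3, the transporter of Bergmann glia, at 709 ± 95.2 and 1703 ± 187 CPM (-1.27 ± 0.085). Gfap, the astrocytic intermediate filament, was higher in hippocampus (1.62 ± 0.059), and Aqp4, the water channel of astrocyte endfeet, in cerebellum (-1.51 ± 0.10). Gja1, connexin 43, had a log2 fold change of -0.02 with a 95% interval of -0.16 to 0.12.

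**Figure D3:**
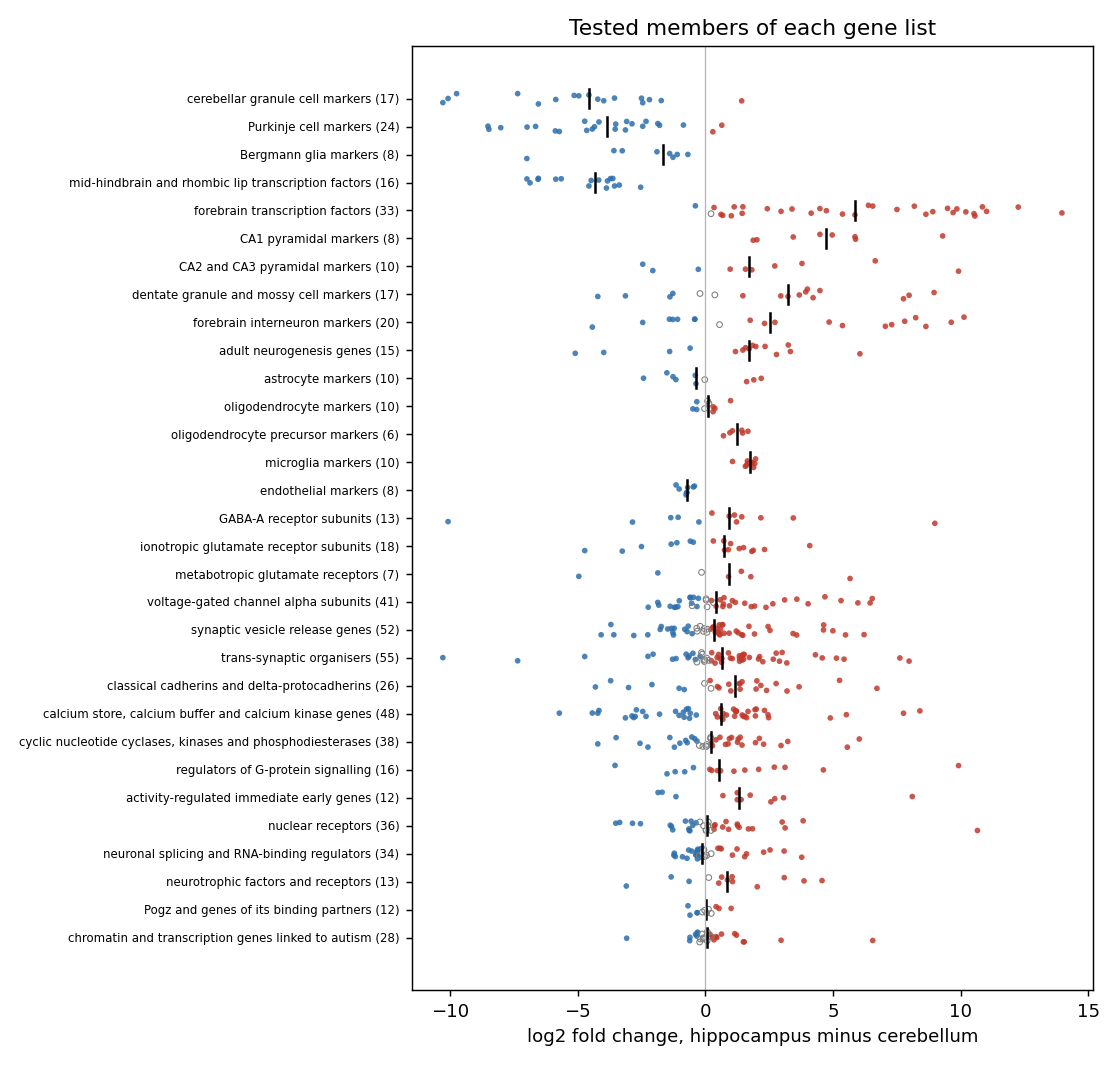
The log2 fold change, hippocampus minus cerebellum, of each tested member of 31 gene lists, with the number tested in brackets. Red and blue points passed the test in favour of hippocampus and cerebellum, open points did not, and black bars are list medians, from -4.56 for granule cell markers to 5.86 for forebrain transcription factors, of which 16 of 33 had to be higher in hippocampus.

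Receptor families had members higher in each tissue, as did all tested genes, of which 35.8% were higher in hippocampus and 37.1% in cerebellum. In the lists of receptors, channels, synaptic and signalling genes and nuclear receptors, 0 to 3 members each had passed the filter through hippocampus alone, 2 of them GABA-A subunits. Of 13 tested GABA-A receptor subunits, 8 were higher in hippocampus and 5 in cerebellum. Gabra5, the subunit of extrasynaptic receptors in hippocampus, was at 188 to 283 CPM in hippocampus and at most 0.836 CPM in cerebellum (8.99 ± 0.15). Gabrd, the delta subunit, which assembles with Gabra6 in granule cells, was higher in cerebellum (-2.85 ± 0.12). Per kb of exon, Gabra6 had the highest mean level of the tested subunits in cerebellum, 383 CPM per kb. Per kb in hippocampus, Gabra5 stood at 86.1 CPM per kb.

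Of the 18 ionotropic glutamate receptor subunits, 11 were higher in hippocampus and 7 in cerebellum, and every one passed the test. The NMDA receptor subunits Grin2b and Grin2c had opposite directions. Grin2b varied widely among hippocampi, from 28 CPM in animal Sample_1170 to 136 CPM in Sample_1155 with a median of 67.2, and was at 1.38 to 5.48 CPM in cerebellum (4.09 ± 0.38). Grin2c was at 84.6 ± 17.8 CPM in hippocampus and 477 ± 82.2 CPM in cerebellum (-2.50 ± 0.067). Grid1, a delta receptor subunit, was higher in hippocampus (95% interval of the log2 fold change 1.20 to 1.79). Among AMPA receptor subunits, Gria1, Gria2 and Gria3 were higher in hippocampus by 0.75 to 1.33, and Gria4 was higher in cerebellum (-3.25 ± 0.086). Of 7 tested metabotropic receptors, 4 were higher in hippocampus, 2 in cerebellum and 1 was not called. Grm5 was at 347 ± 37.5 CPM in hippocampus and 6.94 ± 1.77 CPM in cerebellum (5.67 ± 0.16). Grm4, the presynaptic receptor of granule cells, was higher in cerebellum (-4.96 ± 0.21).

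**Figure D4:**
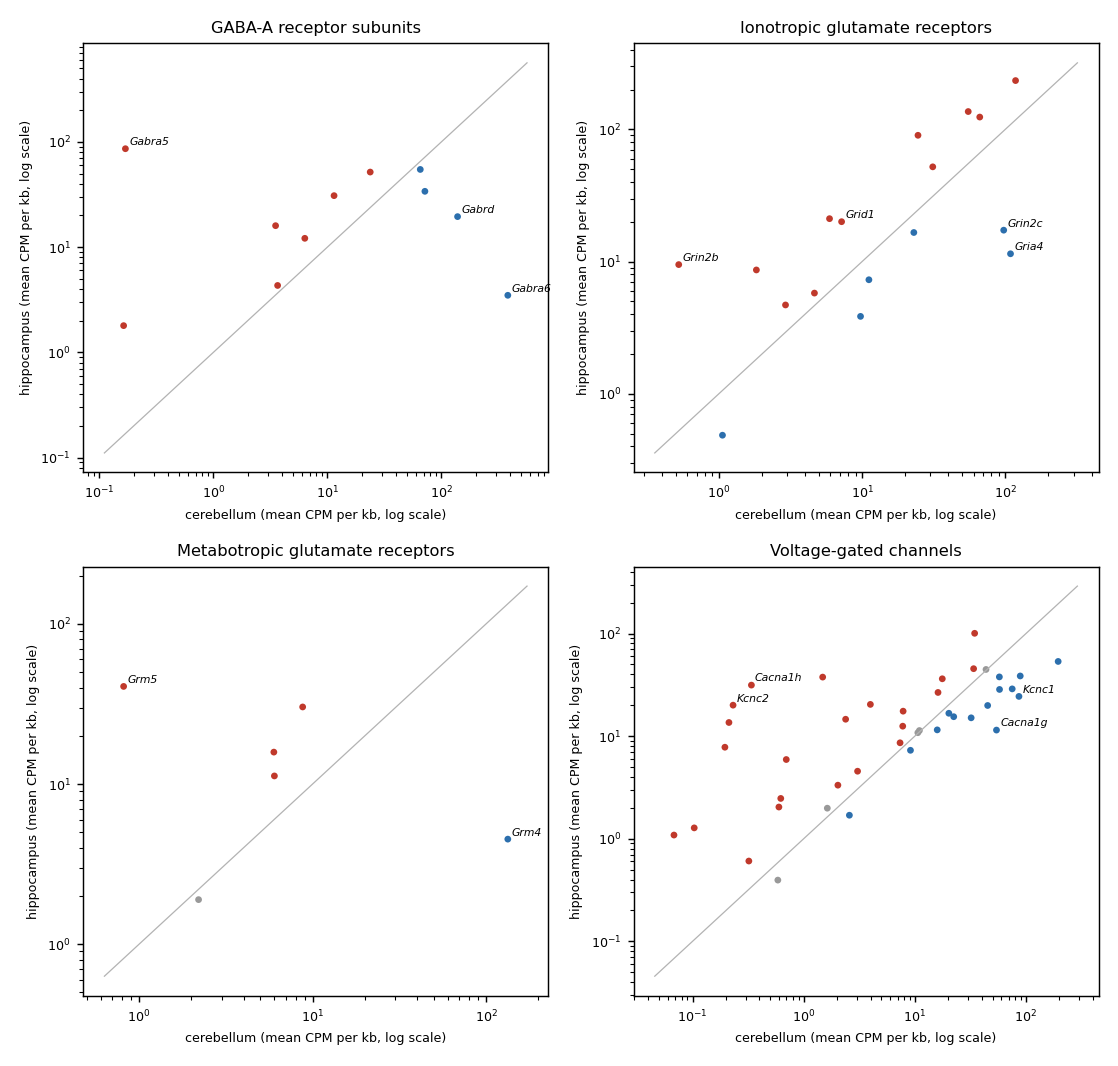
Mean level per kb of exon in hippocampus against cerebellum, both in CPM per kb on log scales, for members of 4 receptor and channel families, with some of the genes named in the text labelled. Red and blue points passed the test in favour of hippocampus and cerebellum, grey points did not, and the line marks equal levels. Gabra5 and Gabra6 lie furthest from the line among GABA-A subunits, and Grm5 and Grm4 among metabotropic glutamate receptors.

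Other families of the synapse also had members higher in each tissue, beside 35.8% of all tested genes higher in hippocampus and 37.1% in cerebellum. Of 41 voltage-gated channel subunits, 22 were higher in hippocampus and 14 in cerebellum. Kcnc1, a fast Kv3 potassium channel of granule and fast-spiking cells, was higher in cerebellum (-1.82 ± 0.061), and its relative Kcnc2 in hippocampus (6.46 ± 0.22). The T-type calcium channel Cacna1g was higher in cerebellum (-2.24 ± 0.16) and Cacna1h in hippocampus (6.54 ± 0.10). Of 52 vesicle release genes, 29 were higher in hippocampus and 16 in cerebellum. Of the calcium sensors of release, Syt1 was higher in hippocampus (1.47 ± 0.068) and Syt2 in cerebellum (-4.08 ± 0.22). The syntaxin Stx1a was at 115 ± 9.53 CPM in hippocampus and 2.55 ± 0.364 CPM in cerebellum (5.49 ± 0.081). Slc17a8, the vesicular transporter VGLUT3, was higher in hippocampus (6.22 ± 0.26).

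Of 55 trans-synaptic organisers, 34 were higher in hippocampus and 13 in cerebellum (35.8% and 37.1% of all tested genes). Cerebellins, secreted bridges between neurexins and delta receptors, were divided. Cbln1 was at 925 ± 93.4 CPM in cerebellum and a median of 4.3 CPM in hippocampus, and Cbln2 at 11 ± 4.77 CPM in hippocampus and 0.0504 ± 0.0409 CPM in cerebellum (7.62 ± 0.31). C1ql2, a related secreted protein of dentate mossy fibres, was at 113 ± 20.8 and 0.44 ± 0.13 CPM (7.98 ± 0.13). Cbln2 and C1ql2 were among the 3 organisers that had passed the filter through hippocampus alone, and so had to be higher there. Of 26 cadherins and delta-protocadherins, 18 were higher in hippocampus and 6 in cerebellum. Cdh9 was at 44.7 ± 6.5 CPM in hippocampus and 0.424 ± 0.207 CPM in cerebellum (6.72 ± 0.19), and Cdh15 stood in the other direction (-4.31 ± 0.20). Cdh9 was the 1 member of that list that had passed the filter through hippocampus alone, and so had to be higher there.

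Second messenger genes were called in both directions, beside 73% of all tested genes called. All 48 genes of calcium stores, buffers and kinases passed the test, 27 higher in hippocampus and 21 in cerebellum. Nrgn, neurogranin, a calmodulin-binding protein of forebrain dendrites, was at 1222 ± 106 CPM in hippocampus and 3.63 ± 0.739 CPM in cerebellum (8.41 ± 0.14). Hpca, hippocalcin, a calcium sensor named for the hippocampus, was at 1803 ± 249 CPM in hippocampus and 60.5 ± 8.08 CPM in cerebellum (4.89 ± 0.12). Ryr3, a ryanodine receptor, was higher in hippocampus (2.48 ± 0.20), and Camk2d, the delta subunit of the kinase, in cerebellum (-2.70 ± 0.12), opposite to Camk2a. Of 38 genes of cyclic nucleotide signalling, 19 were higher in hippocampus, 12 in cerebellum and 7 were not called. The calmodulin-dependent phosphodiesterases Pde1a and Pde1c had log2 fold changes of 5.56 ± 0.17 and -4.21 ± 0.14. Of 16 regulators of G-protein signalling, 11 were higher in hippocampus and 5 in cerebellum, with Rgs14 and Rgs8 at the ends.

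Of 12 immediate early genes, induced by neuronal activity, 9 were higher in hippocampus and 3 in cerebellum. Over all tested genes these shares were 35.8% and 37.1%. Arc, an activity-induced regulator of AMPA receptors, was at 99.7 to 281 CPM in hippocampus and 23 to 29.7 CPM in cerebellum (2.57 ± 0.20). Egr3 was at 132 ± 19.3 CPM in hippocampus and 0.472 ± 0.117 CPM in cerebellum (8.11 ± 0.11). Fos, Ier2 and Dusp1 were the 3 in the other direction, with Fos at 8.23 to 19 CPM in hippocampus and 13.2 to 43.4 CPM in cerebellum (-1.15 ± 0.10). The tissues overlapped for Fos, whereas Arc and Egr3 did not overlap, as was so for 52.2% of all tested genes. Egr3 was the 1 member that had passed the filter through hippocampus alone, and so had to be higher there. Of 13 neurotrophic factors and receptors, 9 were higher in hippocampus, including Bdnf (0.87 ± 0.062), and 3 in cerebellum. Of the 13, 1 had passed the filter through hippocampus alone. The GDNF receptor genes were divided, with the coreceptor Gfra1 higher in hippocampus (4.57 ± 0.15) and the kinase Ret in cerebellum (-3.10 ± 0.18).

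Nuclear receptors and RNA-binding regulators had medians near that of all genes. Of 36 nuclear receptors, 15 were higher in hippocampus, 14 in cerebellum and 7 were not called. Nr3c2, the mineralocorticoid receptor, was at 163 ± 35.7 CPM in hippocampus and 20.3 ± 4.37 CPM in cerebellum (3.01 ± 0.17). Nr3c1, the glucocorticoid receptor, was higher in cerebellum (-0.61 ± 0.08), and so was Rora, on which Purkinje cells depend (-3.51 ± 0.15). Of 34 splicing and RNA-binding regulators, 11 were higher in hippocampus, 16 in cerebellum and 7 were not called. Khdrbs3 was at 188 ± 27.3 CPM in hippocampus and 13.7 ± 1.97 CPM in cerebellum (3.77 ± 0.061). Nova1 was higher in cerebellum (-1.21 ± 0.058) and Nova2 in hippocampus (1.06 ± 0.075).

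Some members of the same families had similar levels in both tissues. The following 4 were chosen after their values were seen, as abundant members with narrow intervals. Nptx1, a neuronal pentraxin that gathers AMPA receptors, was at 1032 ± 119 CPM in hippocampus and 993 ± 111 CPM in cerebellum, with a 95% interval of the log2 fold change of -0.18 to 0.29. The intervals were -0.05 to 0.20 for the complexin Cplx1, -0.10 to 0.16 for the pacemaker channel Hcn2 and -0.10 to 0.16 for Prkar1a, a regulatory subunit of protein kinase A. The libraries of both tissues overlapped for all of them.

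Pogz itself (chr3:94837567-94883567), the heterochromatin-binding zinc-finger gene on which the study turns, did not pass the test between the tissues. It was at 95.1, 94, 91.4, 93.7, 94.8 and 94.2 CPM in the hippocampi of Sample_1129, Sample_1155, Sample_1170, Sample_1172, Sample_1190 and Sample_1192. In the cerebella of the same animals it was at 126, 91.8, 89, 86.5, 96.6 and 89.5 CPM. The cerebellum of Sample_1129 was the high one, and the tissues overlapped. The log2 fold change was -0.03 with a 95% interval of -0.19 to 0.13 (adjusted p = 0.73), and 0.05 ± 0.05 without animal Sample_1129. Of 12 genes, Pogz and genes listed with it as binding partners, 3 were higher in hippocampus, 4 in cerebellum and 5 were not called, Pogz included, and none differed by more than 2-fold in the test. Ehmt2, a histone H3 lysine methyltransferase, lay furthest towards hippocampus (1.01 ± 0.06) and Mga furthest towards cerebellum (-0.68 ± 0.10). Of 28 chromatin and transcription genes linked to autism, 12 were higher in hippocampus, 7 in cerebellum and 9 were not called, beside 73% of all tested genes called, with Tbr1 (6.56 ± 0.20) and Foxp2 (-3.08 ± 0.21) at the ends.

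Markers of neighbouring structures varied with the library as well as the tissue. Of 7 tested choroid plexus markers, 3 were called, Ttr, Kl and Prlr, beside 73% of all tested genes. Among the 7, 1 had passed the filter through hippocampus alone, and so had to be higher there. Ttr, transthyretin, was at 4669, 0.809, 2227, 8.83, 8.82 and 2.79 CPM in the 6 hippocampi in the order given for Pogz, and at 0 to 1.1 CPM in cerebellum. Its log2 fold change was 9.77 ± 2.39, and 3.05 ± 0.85 (adjusted p = 0.013) without animals Sample_1129 and Sample_1170. Kl, klotho, kept a log2 fold change of 4.17 ± 0.12 without these animals, from 4.98 ± 0.40 with them. Prlr, the prolactin receptor, went from 4.83 ± 0.68 to 2.93 ± 0.34. The other 4 tested choroid markers were not called, among them Otx2 and Kcnj13. The median of the list was 1.01, and -0.05 without these animals. Meningeal markers were also highest in hippocampus Sample_1129 and summed to 78.1 to 371 CPM in hippocampus and 231 to 313 CPM in cerebellum, with 5 of 9 higher in cerebellum and 4 not called. Slc17a6, the vesicular transporter VGLUT2, was at 12.3 to 34.5 CPM in hippocampus, and in cerebellum at 9.27 CPM in animal Sample_1155, 4.35 CPM in Sample_1192 and at most 1.69 CPM in the others. Of 8 thalamic markers, 2 were higher in hippocampus and 5 in cerebellum. Calb2 and Rora are on that list and are also expressed by cerebellar neurons. Of 8 striatal markers, 5 were higher in hippocampus (3 of them above the filter through hippocampus alone), 2 in cerebellum and 1 was not called. Of 14 brainstem markers, 5 were above the filter. All 14 together summed to 26.7 to 52.6 CPM in hippocampus and 17 to 34.2 CPM in cerebellum. The part of such neighbouring tissue in any other result was not tested.

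The genes that differed by more than 2-fold had longer genomic spans than the tested genes as a whole. The median span was 29.4 kb for those higher in hippocampus, 27 kb for those higher in cerebellum and 23 kb for all tested genes. Of 476 genes that span over 300 kb, 141 (29.6%) were higher in hippocampus and 55 (11.6%) in cerebellum by that test. Of 3764 genes of up to 10 kb, 416 (11.1%) and 245 (6.51%) were. Median exon lengths were 3.24, 3.17 and 3.02 kb in the same order as the spans. These shares are a description, and genes are not independent replicates.

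**Figure D5:**
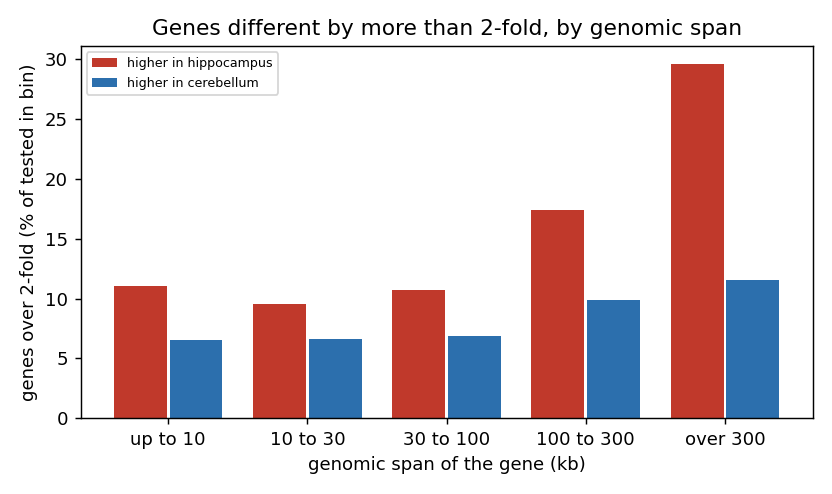
The percentage of tested genes in each class of genomic span that differed by more than 2-fold in the test, red for those higher in hippocampus and blue for those higher in cerebellum. The share for hippocampus is 11.1% in the shortest class, 9.52% in the next and 29.6% in the longest, and for cerebellum it goes from 6.51% in the shortest to 11.6% in the longest.

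The tissue difference itself was compared between the sexes and between genotypes. No gene of 14224 passed for a tissue by sex term (edgeR quasi-likelihood test, 1411 genes at an unadjusted p under 0.05), whereas DESeq2 called 35. Without animal Sample_1172 edgeR called 31, with the choroid plexus genes Kcnj13, Igfbp2 and Enpp2 among them. The females left in that setting, Sample_1129 and Sample_1170, were those whose hippocampal libraries held the high choroid plexus sums. Sex and that signal cannot be told apart there. For the tissue by genotype term, 68 genes were called (0.478%) between the 6 control animals and 6 cKO-/- animals, in which Nestin-Cre removes Pogz from neural progenitors and their descendants. Without animal Sample_1160 of the cKO-/- group, whose hippocampal library an earlier report of these data set apart, the count was 251. The term was not refitted without control animal Sample_1129 or Sample_1170. The tissue difference in controls and in cKO-/- animals is given side by side for the 5 genes with the smallest p, which were picked by their p. Npnt, nephronectin, a dentate marker, had a log2 fold change of 3.68 in controls and 1.54 in cKO-/- animals (difference -2.13 ± 0.17, adjusted p = 1.47e-04). Cpne4, a copine of CA3, had 6.66 and 3.89 (adjusted p = 0.0013). Ccbe1 had 6.03 and 3.90, and Itga11 2.80 and 1.13. Myo15, a myosin of the inner ear, had -4.32 in controls and -0.55 in cKO-/- animals. None of 32 genes, those named by the size or abundance of their tissue difference and Pogz, was called by this term. Without animal Sample_1160, 1 of them, Slit1, was called. A gene that was not called may still differ. Lhx2 had 12.26 in controls and 6.96 in cKO-/- animals (adjusted p = 0.18), and Gabra6 -10.08 and -15.16 (adjusted p = 0.52). The control value of Lhx2 rests on 2 cerebellar counts, and that of Gabra6 moved with animal Sample_1129.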

How the data were processed

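Poly(A)-enriched RNA of hippocampus and cerebellum was sequenced from the 6 control animals. The authors deposited 1 table of raw read counts per gene and tissue. The submitters' processing notes name STAR 250a and mm9, whereas the gene coordinates in the tables are those of GRCm38. The annotation and strand setting are not given in the sources used here, so reads of overlapping genes on opposite strands, such as Pcp2 and Pet100, cannot be told apart, and counts of close paralogues are uncertain. All 27 symbols that a spreadsheet had turned into dates were resolved by position. Counts were scaled by TMM factors, and genes above 1 CPM in at least 6 of 12 libraries were tested (edgeR 4.0.16, R 4.3.3, quasi-likelihood F-test, Benjamini-Hochberg adjustment at 0.05, animal as a block, glmTreat against 2-fold). CPM values were computed from the deposited counts with the same factors. DESeq2 1.42.0, other scalings and filters, thinning to one total and leaving out each animal were alternatives.

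Cerebellar libraries held 26741855 to 29954493 counts and hippocampal ones 30389941 to 45544188. Both libraries of an animal carry its number in the labels, so the samples were paired. Deviations of the 2 libraries from their tissue means correlated at 0.021 to 0.373 (median 0.224, against -0.0792 between different animals). The 6 animals of a tissue are separate mice. On simulated counts for this comparison (14224 genes), 95 of 100 genes changed by 1 on the log2 scale and 100 of 100 changed by 2 were called, with 12 unchanged genes called. Only 200 genes were changed there, with no animal effect and no library that stood apart, whereas 73% of genes were called in the data. The simulation thus does not check the scaling or the error rate in the data. The genes named were the 12 per direction with the largest log2 fold change past the test against 2-fold, with a mean of at least 20 CPM in the higher tissue and no overlap, the 6 most abundant per direction past that test, Pogz, and examples from the gene lists. Results of some of these genes are not reported here. The members and lists were chosen with earlier results of these data known. Promoter windows were those of RefSeq for GRCm38.p6 and were matched by symbol for 75.8% of the tested genes, under the 80% set for a check over gene sets, so none was made.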

Additional observations from a re-analysis of the deposited data

Results flagged for a closer look

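For each gene named in the report the 6 libraries of a tissue were checked for 1 that stood away from the others, by the share of the whole range (log2 CPM plus 0.5) taken by the gap between the extreme library and its nearest neighbour. Of 240 gene and tissue groups, 42 had a share over the 95% critical value for 6 values. Chance gives about 1 in 20 only for unrelated groups picked without regard to their values. Many genes here shared the signal of one library, and Chrna3 was named because a library stood apart. The 42 therefore cannot be set against that rate. Hippocampal library Sample_1129 accounted for 19 of them and cerebellar library Sample_1190 for 8.

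In hippocampal library Sample_1129 the high genes were all genes with higher levels in cerebellum, and their shares of the range were Cbln3 at 0.779, Gabra6 at 0.7558, Fat2 at 0.7968, Ppp1r17 at 0.8735, Car8 at 0.94, Pcp2 at 0.9188, Uncx at 0.8991, Crtam at 0.8998, Cbln1 at 0.7676, Hes3 at 0.9128, Nrk at 0.8926, Sycp1 at 1, Calb1 at 0.7836, En2 at 0.7788, Pde1c at 0.6659 and Slc6a5 at 0.8509. In the same library Cpe at 0.6656, Kcnc2 at 0.6498 and Syt1 at 0.8241 were low. Cbln3, for example, was at 73.3 CPM there against a hippocampal median of 0.751 CPM.

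In cerebellar library Sample_1190 every gene that stood away was low, with Nrk at 0.7701, Camk2a at 0.8311, Itpr1 at 0.7807, Cacna1g at 0.6409, Kcnc1 at 0.6414, Nptx1 at 0.6826, Nr3c2 at 0.6512 and Slc6a5 at 0.6729. Slc6a5 was at 2.49 CPM there against a cerebellar median of 11.7 CPM.

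The other groups were spread over the remaining libraries. Cerebellar library Sample_1129 was the highest for Pogz at 0.7063. Cerebellar library Sample_1155 was the highest for Tac2 at 0.7003. Cerebellar library Sample_1170 was the highest for Lhx2 at 1 and Crym at 0.6561. Cerebellar library Sample_1170 was the lowest for Calb2 at 0.7107. Cerebellar library Sample_1192 was the lowest for Aldoc at 0.8031. Hippocampal library Sample_1155 was the highest for Aldoc at 0.6379 and Ryr3 at 0.6777. Hippocampal library Sample_1155 was the lowest for Cacna1g at 0.6929. Hippocampal library Sample_1170 was the lowest for Pogz at 0.6259. Hippocampal library Sample_1172 was the highest for Chrna3 at 0.9373, Gfra1 at 0.6253 and Tac2 at 0.7152. Hippocampal library Sample_1172 was the lowest for Rtn4rl2 at 0.6724. Hippocampal library Sample_1192 was the lowest for Lhx2 at 0.6433. Lhx2 in cerebellum rests on 2 counts.

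The tissue difference was called as different between control and cKO-/- animals for 5 of the genes named. These were picked by the smallest p of that same term, so their calls are no separate result. Over all 14224 tested genes, 68 (0.478%) were called. The log2 tissue difference in cKO-/- minus that in controls was -2.13 for Npnt, -2.78 for Cpne4, -2.15 for Ccbe1, -1.66 for Itga11, 3.74 for Myo15. No explanation was tested for any of these results.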

How the results depend on the processing

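The count of genes that differed between the tissues was within 1.5 times of 10377 under every alternative run, from 9166 with genes above 1 CPM in all 12 libraries to 11957 with no filter on low counts. Leaving out each animal in turn gave 9649 to 10298 genes, and 2594 to 2717 genes beyond 2-fold against 2700. The count beyond 2-fold was 1780 with genes above 1 CPM in all 12 libraries, a filter that by construction removes genes near 0 in one tissue. The share of called genes that were higher in hippocampus was 49.1%, and became 50.2% with relative log expression factors, 42.18% with library totals alone, 50.93% with no filter and 50.16% with DESeq2. Library totals alone moved the median log2 fold change of all genes from -0.02 to -0.11. Without the pairing of the tissues by animal as a block, 10227 genes were called and 2674 beyond 2-fold, and the block changed the call of no named gene. The 0 genes of the sex term became 1 without the block (Ptk2b), 6 with no filter and 35 with DESeq2. Leaving out each animal gave 0 to 31 genes for that term, the 31 without animal Sample_1172. The females left in that setting were Sample_1129 and Sample_1170, whose hippocampi had the high choroid plexus sums. The 68 genes of the genotype term became 127 without the block, 251 without animal Sample_1160, 356 with DESeq2 and 142 with all 36 libraries. A further pair of settings was added after seeing the data. Without animals Sample_1129 and Sample_1170, 10155 genes were called, and without Sample_1129 and Sample_1190, 10277.

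Of 120 named genes none lost its call or changed direction while called. Chrna3 gained one without animal Sample_1172 (-0.94). Of 39 list medians, those of forebrain interneuron and striatum markers turned negative (-0.73 and -0.81) with genes above 1 CPM in all 12 libraries, those of forebrain transcription factors, CA1 and dentate markers fell to 1.31, 2.75 and 0.10 under that filter, and that of choroid plexus markers (-0.05) without animals Sample_1129 and Sample_1170. The medians of nuclear receptors, Pogz partners and chromatin genes, all near 0, crossed it under some settings. The cause of these shifts was not tested where no construction is given. Depth limits the genes with 3 or fewer counts in one tissue.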
